A study of Mus musculus with 77 samples.

Results

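*Nupr1* and 9 genes of the integrated stress response (*Ddit3*, *Atf3*, *Atf4*, *Atf5*, *Trib3*, *Chac1*, *Asns*, *Sesn2* and *Hspa5*) were followed in the retina of mice with oxygen-induced retinopathy (OIR). The members are all probes whose transcript maps to one of these 10 symbols, which gave 11 of 55681 probes and 10 of 21154 genes on the array. *Nupr1* was chosen with its difference on P17 known, so its difference between OIR and control mice on P17, and the change of this difference to or from another day, are given as a description, without a test. Each gene had 1 probe except *Atf4*, which had 2, and a gene with more probes is represented by the one with the brightest mean retina signal.

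Pups of the strain C57BL/6 breathed 75% oxygen from P7 to P12 and room air afterwards (OIR), or 21% oxygen throughout (control). Retinas were taken on P12, at the end of hyperoxia, from 13 OIR and 12 control mice, on P17 from 13 OIR and 12 control mice, and on P28 from 13 OIR and 14 control mice, with the retinas of a mouse pooled on 1 array. Whole litters, several per group, were randomised to an oxygen level, and since the sources used here do not give the litter of each mouse, the spread between litters could not be modelled. RNA of the whole retina was measured, and more cells of a type and more RNA per cell cannot be told apart.

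The values are offset ratios, the log2 ratio of retina to a common mouse reference RNA on the same array, after an offset that pulls dim spots toward 0. A difference of 1 is a doubling before this pull. The retina was read in the Cy3 channel, which is opposite to the dye named in the sample labels, because 5 rod genes were brighter in Cy3 on all 77 arrays, by a log2 ratio of at least 3.79. The 8 rod markers were well above background on every array. An array held 13801 to 34328 probes whose retina signal stood well above background, and this number went with the slide as well as the day. The 10 genes were measured well above background on 74 to 77 arrays, except *Atf3* with 47. No spot of these genes was saturated.

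As background, the integrated stress response starts when a kinase phosphorylates the initiation factor eIF2alpha, which lowers general translation but favors translation of the transcription factors ATF4, ATF5 and CHOP (encoded by *Ddit3*). These factors bind composite CEBP-ATF elements and induce genes of amino acid supply, redox balance and cell death, among them *Asns*, *Chac1*, *Trib3*, *Sesn2* and *Nupr1*, a small nuclear protein that is induced by many kinds of stress. The chaperone BiP, encoded by *Hspa5*, belongs to the parallel response of the endoplasmic reticulum to unfolded proteins. In the OIR model the central retina loses vessels during hyperoxia and is hypoxic after return to room air.

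*Nupr1* was higher in OIR than in control retinas on P17, and its level on P28 lay between those of the groups on P17. On P12 the ratios of OIR mice ran from −4.18 through a median of −2.88 to −2.22, and those of control mice from −4.20 through −3.12 to −2.64. The OIR mean was −3.00 ± 0.52 (SD, n = 13), the control mean was −3.23 ± 0.45 (SD, n = 12), and these groups overlapped widely. On P17 the OIR mice ran from −1.93 through −1.13 to 0.07, and the control mice from −3.69 through −2.97 to −1.93. The lowest OIR mouse and the highest control mouse both stood at −1.93, so that the groups met but did not overlap, and 13 of 13 OIR mice lay above every control mouse. The mean of OIR mice on P17 was −1.10 ± 0.51 (SD, n = 13), that of controls −2.93 ± 0.52 (SD, n = 12), a difference of 1.83 (SE 0.20), or 3.56-fold. On P28 the OIR mice ran from −1.99 through −1.69 to 0.33, and the control mice from −2.62 through −2.33 to 0.95. All 13 OIR mice on P28 lay above the control median, but 1 control mouse exceeded all 13 of them and another exceeded 12, so that the ranges overlapped.

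The mean levels of *Nupr1* thus ordered as P17 OIR, P28 OIR, P28 control, P17 control, P12 OIR and P12 control. In the offset ratios the last 3 of these means lay within 0.29 of each other, less than the SD within any of them. The step from P17 OIR to P28 OIR (−1.48 ± 0.65, SD, n = 13) was also smaller than the SD of the more variable group. So were those from P28 OIR to P28 control (−1.98 ± 1.02, SD, n = 14) and from P28 control to P17 control. In the ratios as deposited, the last step was wider than this SD, from −2.41 (SD 1.20) to −4.25 (SD 0.26). The means of P12 control, −5.13 (SD 0.30), and P12 OIR, −5.28 (SD 0.40), stood there in the opposite order. Both lay below P17 control by more than the SD of any of these 3 groups.

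**Figure D1:**
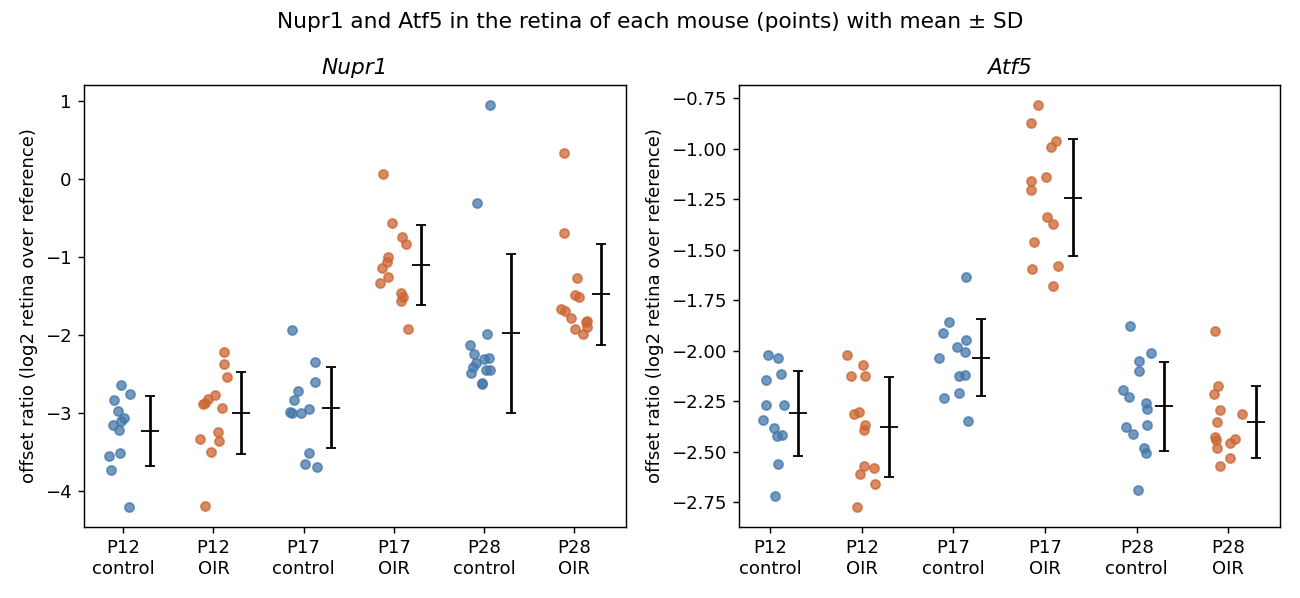
Offset ratios (log2 retina over reference) of *Nupr1* (left) and *Atf5* (right) in each mouse of the 6 groups, with the mean and SD as bars. On P17 13 of 13 OIR mice lie above every control mouse in *Nupr1* and 12 of 13 in *Atf5*, and on P28 2 control and 2 OIR mice stand apart with high *Nupr1*.

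The P17 difference of *Nupr1* was seen on every slide that carried both groups. Within the 6 slides with OIR and control mice of P17, the OIR mean was higher by 1.22 to 3.17, with a median of 1.56. The value of 3.17 came from slide 9. There the mice of P12 and the control mice of P17 had the lowest *Nupr1* ratios of their groups (−4.20 to −3.65), while 1 OIR mouse of P17 had the highest (0.07). The other OIR mouse of P17 (−1.07) and the control mouse of P28 (−2.30) on this slide lay within the range of their groups. Without slide 9 the P17 difference was 1.58 (SE 0.17). In the ratios as deposited, which carry no offset, it was 2.79 (SE 0.20), or 6.93-fold. The reference channel alone, which holds the same RNA on every array, differed by −0.09 (SE 0.11) for this probe.

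Other markers moved with *Nupr1* on P17, and their part in its difference was not tested. In this comparison 0.81% of all probes were called as higher and 0.33% as lower. Of the reactive glia list, 4 of 6 rose in limma (*Edn2*, *Vim*, *Gfap* and *Lcn2*, by 0.86 to 1.67), and the mean ratio of the list ran from −0.23 to 0.61 in OIR and from −1.14 to −0.27 in control mice. *Edn2* encodes endothelin-2, which the paper describes as a vasoconstrictor with raised transcripts in retinal injuries, so it is not a marker of glia alone. All means of this list, here and below, include *Edn2*. Among the hypoxia response genes, 5 of 9 rose, led by *Ndufa4l2* with 2.03 (SE 0.10). Of the microglia and macrophage list 2 of 7 rose (*Csf1r* and *Aif1*, by 0.51 and 0.33), with a list mean of −0.37 to 0.04 in OIR and −0.66 to −0.38 in control mice. Of the lens list 1 of 5 changed, *Bfsp2*, which fell by 0.31, and the list mean ran from −0.02 to 1.10 in OIR and from 0.01 to 1.37 in control mice.

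Single genes of some further cell type lists were called on P17 as well, and their part was not tested either. Of the endothelial list 1 of 7 rose, *Cd34*, by 1.33 (SE 0.11), and the list mean ran from 0.15 to 0.51 in OIR and from −0.11 to 0.30 in control mice. Of the red blood cell list 1 of 5 rose, the globin *Hba-a1*, by 1.38 (SE 0.25), with a list mean of 0.28 to 1.10 in OIR and 0.19 to 0.50 in control mice. Of the pigment epithelium list 1 of 5 fell, *Rpe65*, a visual cycle enzyme, by 0.81 (SE 0.19), with a list mean of 0.22 to 0.79 in OIR and 0.26 to 1.15 in control mice. No gene of the Mueller glia list was called in limma, with 3 of 6 at an unadjusted p under 0.05, and its mean ran from 2.84 through a median of 3.18 to 3.49 in OIR and from 2.52 through 3.60 to 3.92 in control mice. No rod or cone marker was called, with 1 of 8 and 0 of 5 at an unadjusted p under 0.05.

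Among the members tested on P17, the transcription factor *Atf5* was the single call with the main settings. On P17 its ratio ran from −1.68 through −1.21 to −0.78 in OIR mice and from −2.35 through −2.02 to −1.63 in control mice. Of 13 OIR mice, 12 lay above every control mouse and the other one above the control median. The mean rose from −2.03 ± 0.19 (SD, n = 12) to −1.24 ± 0.29 (SD, n = 13), by 0.79 (SE 0.10) or 1.73-fold, with an adjusted p of 1.33e-05 in limma. Adjusted p is the Benjamini-Hochberg value over all 55681 probes, and a probe is called below 0.05. The 6 slides gave 0.68 to 1.14, all higher in OIR.

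*Atf5* was the single call among the 9 members tested on P17, and 1.14% of all probes were called in that comparison, 0.81% as higher. At an unadjusted p under 0.05 there were 4 of 9, against 5769 of 55681 probes. All 9 differences were positive, from 0.03 (*Atf4*) to 0.79 (*Atf5*) with a median of 0.24, against 48.1% of all genes and a median of −0.0025 over all genes, but that of *Atf4* turned negative in the deposited ratios, with an offset of 0, in the retina channel without the reference and with lens genes as a term.

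The effect of OIR on *Atf5* changed between the days. On P12 OIR mice had a mean of −2.38 ± 0.25 (SD, n = 13) and control mice one of −2.31 ± 0.21 (SD, n = 12). On P28 the means were −2.35 ± 0.18 (SD, n = 13) and −2.28 ± 0.22 (SD, n = 14). The difference was −0.07 (SE 0.09, adjusted p = 0.9999) on P12 and −0.08 (SE 0.08, adjusted p = 0.757) on P28, so that the 95% intervals, −0.25 to 0.12 and −0.23 to 0.08, leave out a rise as large as that on P17. In one limma model over 6 group means, the OIR effect on *Atf5* rose by 0.86 (SE 0.13, adjusted p = 2.38e-06) from P12 to P17 and fell by 0.87 (SE 0.12, adjusted p = 4.26e-06) from P17 to P28. It was the single call of 9 members in each contrast, where 0.487% and 0.278% of all probes were called. Between P12 and P28 no effect of the 10 members changed by the same test (0.0395% of probes called), with 1 member at an unadjusted p under 0.05 against 3442 of 55681 probes, and none was called under the 15 alternatives. The corresponding changes of *Nupr1*, given without a test where P17 enters, were 1.61 (SE 0.36) and −1.33 (SE 0.36).

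**Figure D2:**
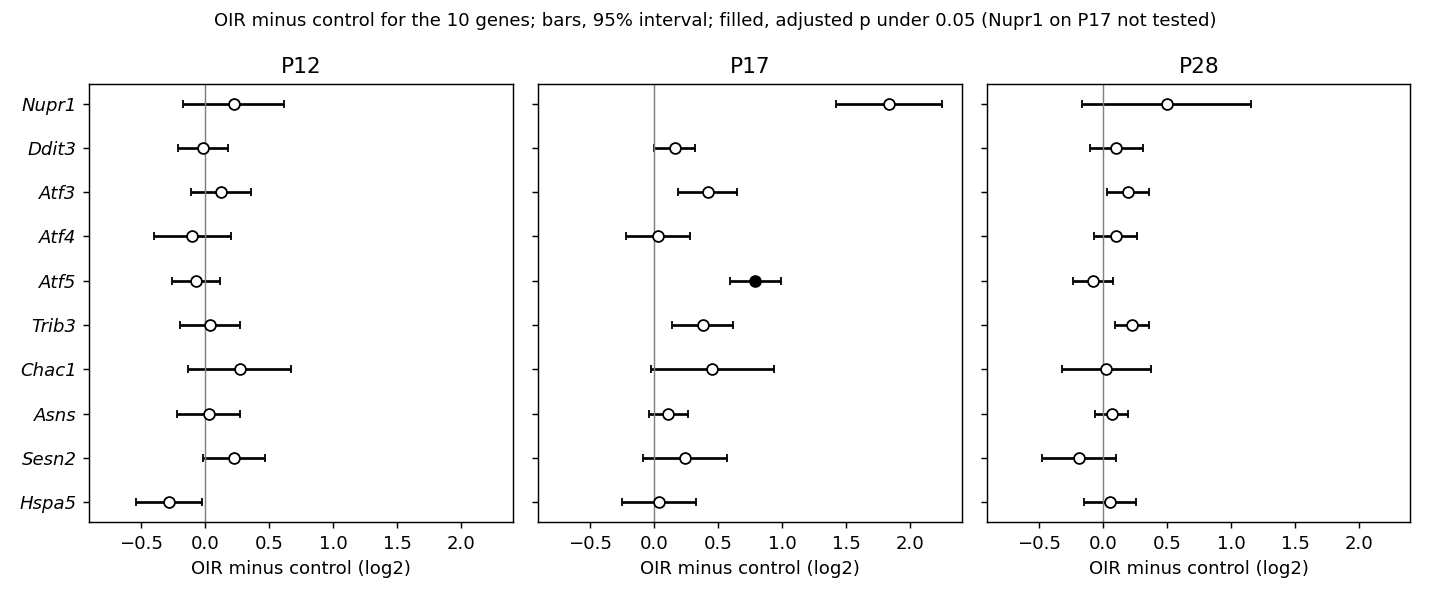
Difference between OIR and control mice (log2) of each of the 10 genes on P12, P17 and P28, with 95% intervals. Filled points passed an adjusted p of 0.05 in limma, which on P17 was *Atf5* with 0.79. *Nupr1* was not tested on P17.

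The further transcription factors were not called on P17. *Atf3*, a bZIP factor that is itself induced within minutes to hours of stress, ran from −0.99 through −0.48 to −0.15 in OIR and from −1.44 through −0.96 to −0.29 in control mice. Its difference was 0.42 (SE 0.11, adjusted p = 0.0669). In all, 12 of 13 OIR mice exceeded the control median, and the 6 slides gave 0.03 to 0.84. *Atf3* was well above background in 11 of 13 OIR but 4 of 12 control mice of P17, and its size differed with the treatment of dim spots. In the deposited ratios it was 1.69 (SE 0.25, adjusted p = 7.86e-05), and over 16 alternatives it ran from 0.34 to 1.95 and was called in 9.

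*Atf4*, the central factor of the response, which is regulated mainly at translation, was not called. On P17 the brighter probe averaged 0.75 ± 0.30 (SD, n = 13) with OIR against 0.72 ± 0.32 (SD, n = 12) without, a difference of 0.03 (95% interval −0.22 to 0.28, adjusted p = 0.938). The other probe gave 0.11 (SE 0.10, adjusted p = 0.712). *Ddit3*, which encodes CHOP, had means of −0.30 ± 0.24 (SD, n = 13) and −0.46 ± 0.15 (SD, n = 12), a difference of 0.16 (SE 0.08, adjusted p = 0.464), and 11 of 13 OIR mice exceeded the median of the controls.

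Among the targets, none was called on P17 in limma with the main settings. *Trib3*, a pseudokinase induced by ATF4 and CHOP, ran from −2.17 through −1.73 to −1.12 in OIR and from −2.67 through −2.09 to −1.63 in control mice. Its difference of 0.38 (SE 0.12) had an adjusted p of 0.145, and became 0.44 (adjusted p = 0.00748) with the slide as a block, with 6 of 6 slides higher in OIR. It was called in 5 of 16 alternatives (0.32 to 0.78). *Chac1*, an enzyme that degrades glutathione, ran from −3.19 through −1.88 to −1.49 in OIR and from −3.51 through −2.48 to −1.10 in control mice, a difference of 0.46 (SE 0.23, adjusted p = 0.509). Over 16 alternatives this ran from 0.33 to 0.72 and was called in 4, the deposited ratios without and with the slide block, the retina channel and robust regression. The control mice varied more than the OIR mice in *Chac1* (SD 0.73 and 0.45), and 1 control mouse had the highest value of both groups.

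*Asns*, the asparagine synthetase, differed by 0.11 (SE 0.07, adjusted p = 0.618) on P17. Of the OIR mice, 12 of 13 exceeded the median of the controls but 0 the highest control. *Sesn2*, a leucine sensor that restrains mTORC1, differed by 0.24 (SE 0.16, adjusted p = 0.619). *Hspa5* averaged −1.07 ± 0.27 (SD, n = 13) with OIR against −1.11 ± 0.44 (SD, n = 12) without, a difference of 0.04 (95% interval −0.25 to 0.33, adjusted p = 0.935).

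The promoters of the members differ in the elements they carry, and 5 of them are shown for this reason. The sequences are from RefSeq (GRCm38.p6) and hold the 200 bases before the annotated start, 5′ to 3′ on the strand of the gene, at chr7:126625471-126625670 (minus strand) for *Nupr1*, chr1:191183334-191183533 (minus) for *Atf3*, chr2:119351042-119351241 (plus) for *Chac1*, chr6:7693210-7693409 (minus) for *Asns* and chr2:34771890-34772089 (plus) for *Hspa5*. Capitals mark the match to the full CEBP-ATF element in *Nupr1*, *Atf3* and *Chac1*, to its looser core alone in *Asns*, and to the ER stress element in *Hspa5*.
Nupr1: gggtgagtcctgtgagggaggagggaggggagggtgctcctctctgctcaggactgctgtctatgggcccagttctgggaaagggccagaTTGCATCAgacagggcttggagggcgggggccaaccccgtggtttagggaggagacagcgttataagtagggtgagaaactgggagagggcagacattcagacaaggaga
Atf3: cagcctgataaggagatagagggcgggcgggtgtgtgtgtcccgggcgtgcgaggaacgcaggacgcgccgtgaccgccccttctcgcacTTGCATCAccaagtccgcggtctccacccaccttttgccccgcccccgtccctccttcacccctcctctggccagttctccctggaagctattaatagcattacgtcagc
Chac1: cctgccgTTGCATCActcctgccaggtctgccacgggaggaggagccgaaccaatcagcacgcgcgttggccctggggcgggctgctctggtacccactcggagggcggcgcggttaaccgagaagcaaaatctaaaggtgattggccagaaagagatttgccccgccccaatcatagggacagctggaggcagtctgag
Asns: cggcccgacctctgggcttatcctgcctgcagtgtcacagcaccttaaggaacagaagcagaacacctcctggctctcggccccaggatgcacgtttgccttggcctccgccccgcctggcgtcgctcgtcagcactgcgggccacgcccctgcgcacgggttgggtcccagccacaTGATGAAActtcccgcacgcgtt
Hspa5: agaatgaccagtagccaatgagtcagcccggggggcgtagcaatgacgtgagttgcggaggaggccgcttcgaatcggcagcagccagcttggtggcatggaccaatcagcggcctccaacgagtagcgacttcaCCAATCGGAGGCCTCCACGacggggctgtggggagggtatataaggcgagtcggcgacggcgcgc

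The CEBP-ATF element was searched as TTGCATCA on both strands of windows of 300 bases, which reach 50 bases past the start. It was found in 3 of 11 windows of the 10 members and in 0.895% of 32851 promoters. The match began at position −110 in *Nupr1*, −110 in *Atf3* and −193 in *Chac1*. The looser core TGATGNAA, which overlaps the full element, was found in 3.97% of promoters and added *Asns* (−23) and *Trib3* (15, past the start). The ER stress element, in which CCAAT and CCACG stand 9 bases apart, was found in *Hspa5* (−65) and in 0.119% of promoters. *Atf5*, with 2 windows, *Atf4*, *Ddit3* and *Sesn2* held none of these letters there. A match of letters is a description of the sequence and not evidence of binding.

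On P12, at the end of hyperoxia, no member was called in limma, with 0.0216% of all probes called, and none was called under the 16 alternatives. At an unadjusted p under 0.05 there was 1 of 10 members, against 1741 of 55681 probes. The differences ran from −0.28 (*Hspa5*, SE 0.12) to 0.27 (*Chac1*, SE 0.19), with a median of 0.04 against −0.0018 over all genes. The difference of *Nupr1* was 0.23 (SE 0.19, adjusted p = 0.9999), with a 95% interval of −0.17 to 0.62, and 8 of 13 OIR mice lay above the control median. Over the 16 alternatives this difference ran from −0.20 to 0.24, and it was below 0 in the deposited ratios. *Hspa5* ran from −1.87 through −1.23 to −0.97 in OIR and from −1.63 through −1.09 to −0.31 in control mice, and 2 of 13 OIR mice exceeded the median of the controls.

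On P28 no member was called either, with 0.0611% of all probes called. At an unadjusted p under 0.05 there were 2 of 10 members, against 4145 of 55681 probes. The differences ran from −0.18 (*Sesn2*, SE 0.14) to 0.50 (*Nupr1*), with a median of 0.08 against 0.0032 over all genes. *Trib3* had the lowest adjusted p with 0.366, at a difference of 0.23 (SE 0.06), and 12 of 13 OIR mice lay above the control median. *Nupr1* differed by 0.50 (SE 0.32, adjusted p = 0.700), with a 95% interval of −0.16 to 1.16.

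On P28, 4 mice stood far above the others in *Nupr1*, and lens genes were high in all 4. Among control mice of P28, 2 had *Nupr1* ratios of 0.95 and −0.30, where the other 12 control mice ran from −2.62 to −1.98. Among OIR mice, 2 had 0.33 and −0.68, where the other 11 ran from −1.99 to −1.27. The mean ratio of the lens list (*Cryaa*, *Crygs*, *Bfsp1*, *Bfsp2* and *Lim2*) was 3.40 in the control mouse with *Nupr1* at 0.95 and 2.94 in the one at −0.30, the highest values of that group, whose median was 0.78. It was 2.21 in the OIR mouse with *Nupr1* at 0.33 and 1.96 in the one at −0.68, against a median of 1.07. A further 2 OIR mice had a high lens mean (2.08 and 1.64), with *Nupr1* at −1.90 and −1.82. On P17 the lens mean of no mouse passed 1.37.

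Leaving out the 6 mice of P28 with a lens mean above 1.5, a limit chosen after the values were seen, the OIR mice of P28 ran in *Nupr1* from −1.99 through −1.69 to −1.27 (n = 9) and the control mice from −2.62 through −2.38 to −1.98 (n = 12). The difference was then 0.68 (SE 0.09, adjusted p = 0.00111 in limma), or 1.60-fold, with 8 of 9 OIR mice above every control mouse. Robust regression on all mice gave 0.65 (SE 0.10, adjusted p = 0.00103). With the lens mean as a term in the fit, it was 0.45 (SE 0.19, adjusted p = 0.681), so that the call on P28 depends on how these mice are treated. The 3 slides with both groups gave 0.22 to 0.95. The part of lens RNA in these values was not tested further. Other markers also moved on P28, when 0.0611% of all probes were called, and their part was not tested. Of the reactive glia list 1 of 6 rose, *Edn2*, by 1.36 (SE 0.14), which as said above is not a marker of glia alone. The list mean ran from −0.79 through a median of −0.53 to −0.01 in OIR and from −1.12 through −1.02 to −0.48 in control mice. Of the microglia and macrophage list 1 of 7 rose, *Csf1r*, by 0.41 (SE 0.08), with a list mean of −0.65 through −0.35 to −0.20 in OIR and −0.71 through −0.58 to −0.53 in control mice. Of the hypoxia response list 1 of 9 rose, *Ndufa4l2*, by 0.79 (SE 0.07), with a list mean of −0.90 through −0.69 to −0.25 in OIR and −1.02 through −0.87 to −0.51 in control mice. No gene of the other 7 marker lists was called, with 0 to 2 per list at an unadjusted p under 0.05.

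**Figure D3:**
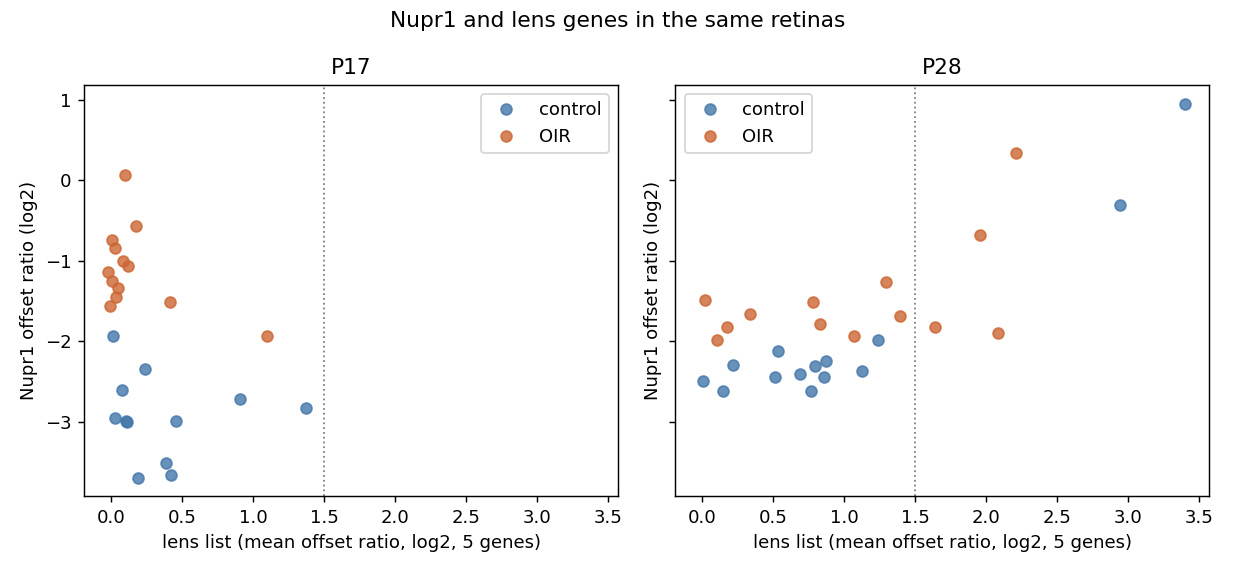
*Nupr1* offset ratio against the mean offset ratio of 5 lens genes (both log2) in each mouse on P17 (left) and P28 (right). The dotted line marks a lens mean of 1.5, beyond which lie 2 control and 4 OIR mice of P28 and none of P17.

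In control mice, members changed with age as well. From P12 to P28, 5 of 10 members were called in limma, where 23% of all probes were called, or 42% of 32409 probes with dim ones left out. *Nupr1* rose by 1.25 (SE 0.25, adjusted p = 0.00011), or 2.38-fold, and by 0.86 (SE 0.18, adjusted p = 0.000142) without the mice high in lens genes. In the deposited ratios it rose by 2.71, and over 15 alternatives by 0.86 to 2.71, called in all 15. *Ddit3* rose by 0.54 (SE 0.09, adjusted p = 8.36e-06), from −0.53 ± 0.25 (SD, n = 12) to 0.0011 ± 0.30 (SD, n = 14). *Asns* rose by 0.44 (SE 0.09, adjusted p = 9.9e-05) and *Trib3* by 0.28 (SE 0.10, adjusted p = 0.0339). Over the 15 alternatives *Ddit3* rose by 0.49 to 1.13, *Asns* by 0.43 to 0.66 and *Trib3* by 0.28 to 0.81, each called in all 15. The probes of *Atf4* went against each other, since the brighter one fell by 0.45 (SE 0.12, adjusted p = 0.00278) and the other rose by 0.39 (SE 0.10, adjusted p = 0.00259), and the fall was called in 11 of 15 alternatives but not in the deposited ratios (−0.16), and turned to 0.030 in the retina channel. Day was tied in part to slide and brightness. The arrays of P28 on slides 4, 5, 6 and 9 held 30835 to 34328 probes well above background, and those on slides 1, 2, 3, 10 and 11 held 16912 to 21000, while the arrays of P12 held 15989 to 28873. Slide 6 carried mice of P28 alone. With the slide as a block the rises were 1.20 for *Nupr1*, 0.49 for *Ddit3*, 0.46 for *Asns* and 0.31 for *Trib3*, each called. The part of brightness in the changes with age was not tested further. Means of marker lists also differed between control mice of P12 and P28, and their part was not tested. The median rose from 2.80 to 3.49 for cones and from 0.16 to 0.78 for lens. It fell from 5.59 to 4.86 for rods, from −0.67 to −1.02 for reactive glia and from 0.11 to −0.19 for endothelium. The medians of the other lists moved less.

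Between mice of the same group, *Atf3*, *Atf5* and *Chac1* varied with *Nupr1*, but by r no member did once slide was removed as well. The retina signal of *Atf3* was dim on all but 47 arrays, and the part of dim spots in its relation was not tested. With the group means removed, Pearson's r over 77 arrays was 0.39 for *Atf3* (Spearman's rho 0.47), 0.38 for *Atf5* (rho 0.55) and 0.37 for *Chac1* (rho 0.44). The p of r from permutations within groups was 0.00024, 0.00079 and 0.00041, or 0.00184, 0.00237 and 0.00184 after Benjamini-Hochberg adjustment over the 9 members. The permutation p of rho was 3e-05, 1e-05 (the smallest that 100000 permutations give) and 8e-05, or 0.000135, 9e-05 and 0.00024 after adjustment. Without the 2 arrays farthest from the median of *Nupr1*, r was 0.54, 0.53 and 0.49. The other 6 members had r between −0.18 (*Hspa5*) and 0.17 (*Asns*), with adjusted permutation p of 0.188 or more for r, although the rho of *Sesn2* (0.30) had an adjusted p of 0.0246.

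These permutations leave out that mice of several groups share a slide. With slide and group means removed and permutations within slides, a test added after seeing the data, r was 0.26 for *Atf3*, 0.29 for *Atf5* and 0.25 for *Chac1*, with permutation p of 0.064, 0.0124 and 0.0633 and adjusted p of 0.192, 0.111 and 0.192. By rank the relation remained past the threshold, with rho of 0.29, 0.37 and 0.33 (permutation p = 0.016, 0.00132 and 0.00663, adjusted p = 0.036, 0.0119 and 0.0298), as did that of *Trib3* (rho 0.28, permutation p = 0.0142, adjusted p = 0.036). The rho of *Sesn2* was then −0.12 (adjusted permutation p = 0.351).

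Within groups the relation was uneven, and slide was not removed from these r. On P12 and in control mice of P17, the mice on slide 9 had the lowest *Nupr1* ratios of their groups (−4.20 to −3.65). The part of the slide in the differences between groups was not tested. On P12 and in control mice of P17, r ran from 0.78 to 0.88 for *Atf3*, from 0.60 to 0.89 for *Atf5*, from 0.91 to 0.92 for *Chac1* and from 0.67 to 0.79 for *Sesn2*. In OIR mice of P17 it was 0.48, 0.29, −0.19 and −0.51, whereas *Ddit3* had 0.74, *Hspa5* 0.69, *Trib3* 0.62, *Asns* 0.15 and *Atf4* −0.08 there. In control mice of P17 these 5 had 0.30, −0.67, −0.08, 0.49 and −0.67. On P28 it was −0.02 and −0.12 for *Atf3* in control and OIR mice, 0.22 and 0.01 for *Atf5*, 0.13 and −0.06 for *Chac1*, and −0.08 and −0.04 for *Sesn2*. Most spots of *Atf3* were dim in the groups where its r was highest. Arrays with a clear signal numbered 3 for P12 OIR (n = 13), 3 for P12 control (n = 12) and 4 for P17 control (n = 12). P17 OIR had 11 such arrays (n = 13), P28 OIR 13 (n = 13) and P28 control 13 (n = 14).

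The means of the marker lists also varied with *Nupr1* within groups, positively or negatively. This is given with no test and with slide not removed, and their part in the relations was not tested. Over the 6 groups the r with *Nupr1* ran from 0.08 to 0.81 for the hypoxia response list, from −0.08 to 0.91 for reactive glia, from −0.87 to −0.10 for cones and from −0.82 to −0.04 for Mueller glia. The sign depended on the group for rods (−0.59 to 0.68), microglia and macrophages (−0.51 to 0.69), endothelium (−0.40 to 0.44), red blood cells (−0.85 to 0.69), pigment epithelium (−0.74 to 0.48) and lens (−0.55 to 0.94). With *Atf5* the r ran from 0.34 to 0.85 for the hypoxia response list, from 0.45 to 0.76 for reactive glia and from −0.77 to −0.17 for pigment epithelium. It took both signs for rods (−0.34 to 0.75), cones (−0.69 to 0.53), Mueller glia (−0.71 to 0.58), microglia and macrophages (−0.38 to 0.71), endothelium (−0.21 to 0.66), red blood cells (−0.85 to 0.55) and lens (−0.55 to 0.28).

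The genes most like *Nupr1* over the 77 arrays, by r after removing the group means, were *Col4a1* (0.83), *Anxa1* (0.82), *Nid1* (0.78), *S100a6* (0.77) and *Cd24a* (0.74). They were taken from 11915 genes well above background on at least 39 arrays, whose r with *Nupr1* had a median of −0.10 and ran from −0.34 at the 5th to 0.33 at the 95th percentile. *Col4a1* and *Nid1* encode basement membrane proteins, *Anxa1* an annexin, *S100a6* a calcium-binding protein and *Cd24a* a surface glycoprotein. The likeness rested in part on the 4 arrays farthest from the median of *Nupr1*, without which r was 0.65, 0.71, 0.65, 0.75 and 0.52. Within groups, with slide not removed, it was not even either. *Col4a1* had 0.15 in control mice of P12, *Anxa1* 0.20 and *Cd24a* −0.33 in OIR mice of P17, and *S100a6* 0.22 in OIR mice of P28. In control mice of P28 the r of the 5 genes, in the order above, was 0.94, 0.94, 0.85, 0.83 and 0.96. The mouse with the highest *Nupr1* of its group on P28, 0.95 in control and 0.33 in OIR mice, was high in lens genes. This mouse also had the highest *Col4a1* (0.85 and 0.36), *Nid1* (−0.25 and −0.87), *Anxa1* (−1.98 and −2.34) and *Cd24a* (1.94 and 0.50) of its group. For *S100a6* this held in the control mice (−4.31) but not in the OIR mice. On P17 *Col4a1* rose by 1.09 (adjusted p = 0.000591), *Nid1* by 1.04 (adjusted p = 0.00104) and *S100a6* by 1.85 (adjusted p = 4.59e-06) in OIR mice, whereas *Anxa1* with 0.34 and *Cd24a* with 0.14 were not called.

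The wider pathway was described by 8 lists of genes that act with the members, beside which stand the 1.14% of all probes called on P17, or 1.5% with the slide as a block. On P17 none of the 14 kinases, phosphatase subunits and eIF2 or eIF2B subunits was called in limma (1 at an unadjusted p under 0.05, 1 called with the slide as a block), with a list median of 0.02. The lowest adjusted p, looked up after the values were seen, was that of the phosphatase subunit *Ppp1r15a*, which is induced by CHOP, with 0.22 (SE 0.06, adjusted p = 0.080). Of 20 bZIP partners and further targets of ATF4 and CHOP, 1 was higher, *Gadd45b*, a growth arrest gene, by 1.21 (SE 0.22, adjusted p = 0.00302). *Cebpb*, a bZIP partner also looked up after the values were seen, had 0.80 (SE 0.22, adjusted p = 0.089), and the list median was 0.08. Over all 21154 genes the median was −0.0025.

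Of 11 enzymes of amino acid synthesis and one-carbon metabolism, 1 was lower, *Got1*, an aspartate aminotransferase, by −0.59 (SE 0.15, adjusted p = 0.0475). Of 9 amino acid transporters, *Slc7a1*, a carrier of cationic amino acids, rose by 0.41 (SE 0.09, adjusted p = 0.0144) and *Slc6a9*, a glycine carrier, fell by 0.36 (SE 0.08, adjusted p = 0.0312). With the slide as a block no transporter was called as lower. None of 18 aminoacyl-tRNA synthetases (median 0.04), 21 ER chaperones and targets of ATF6 or XBP1 (median −0.02) and 8 mitochondrial chaperones and proteases (median −0.08) was called, with 3, 2 and 3 genes at an unadjusted p under 0.05, where 5769 of 55681 probes had such a p. With the slide as a block, 1 mitochondrial gene was called as higher. Of 19 immediate early genes, 3 rose, *Nr4a1* by 0.96 (SE 0.13, adjusted p = 9.42e-05), *Egr1* by 0.75 (SE 0.14, adjusted p = 0.0025) and *Jun* by 0.67 (SE 0.10, adjusted p = 0.000418), and 17 of 19 differences were positive, with a list median of 0.33. In the slide-blocked fit 6 of the immediate early genes were called as higher. Over all genes 48.1% of differences were positive on P17. On P28 the median of the immediate early genes was −0.13 and 4 of 19 differences were positive, against 0.0032 and 52.3% over all genes. On P12 and on P28 no gene of the 8 lists was called in limma, on days when 0.0216% and 0.0611% of all probes were called. At an unadjusted p under 0.05 there were 0 to 3 genes per list on P12, against 1741 of 55681 probes, and 1 to 3 on P28, against 4145. In the deposited ratios 1 of the 20 bZIP partners and targets was called on P28.

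**Figure D4:**
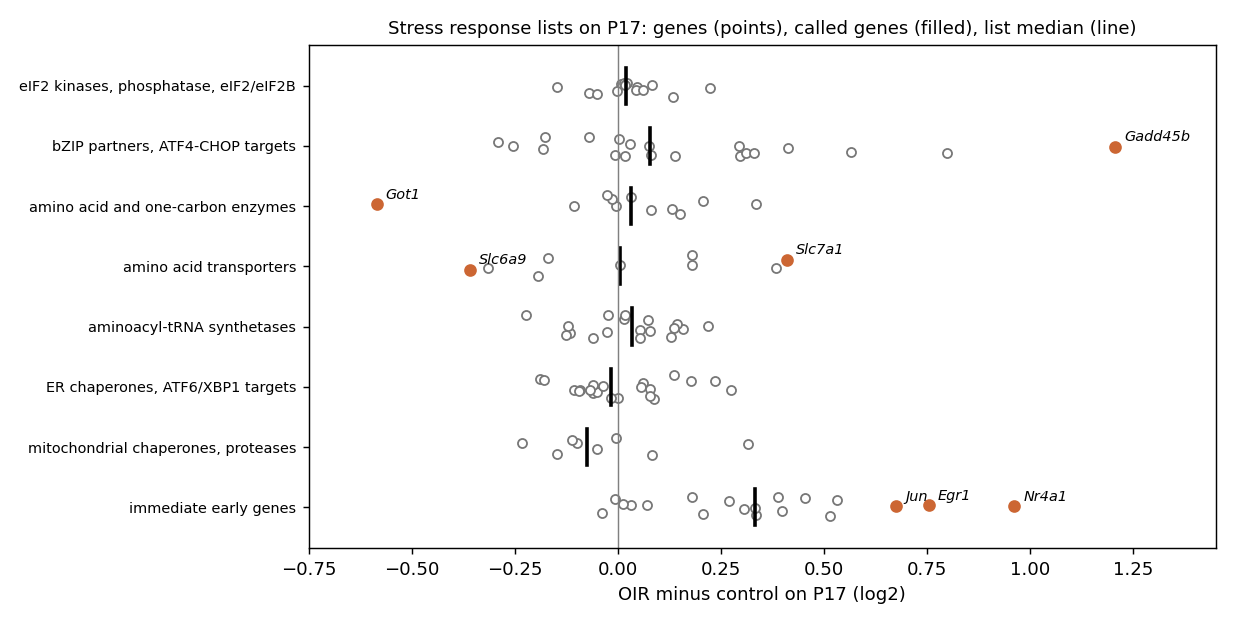
Difference between OIR and control mice on P17 (log2) of each gene in 8 lists of the stress response, with called genes filled and named and the list median as a line. The list of immediate early genes has the highest median, 0.33, and the other medians lie between −0.08 and 0.08.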

How the data were processed

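Whole-retina RNA of 77 mice was hybridised with universal mouse reference RNA on 2-colour Agilent arrays, 1 mouse per array on 11 slides, and the authors scanned them and extracted them with Agilent Feature Extraction 10.7.3.1. Per the file headers, the deposited scanner files hold spot and local background intensities of Cy3 and Cy5 for 62976 spots, of which the medians were used. The deposited series table holds log2 ratios that the authors took from the processed signals, equal to Cy3 over Cy5 within 0.001 for at least 99.3% of probes on every array, with column medians from −0.13 to 0.01 and no further scaling found.

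From the intensities, the background was corrected by normexp with an offset of 50 and ratios were loess-normalised within arrays in limma 3.58.1 (R 4.3.3), with control spots at weight 0. Outlier spots, 0.59% to 0.95% per array, were left out. Probes were named through their transcript accession in a RefSeq table, which gave 28026 of 55681 probes a symbol. The OIR and control groups were compared on each day by limma's moderated test, and changes between days in a model of 6 group means, with Benjamini-Hochberg adjustment over all 55681 probes and a threshold of 0.05. The script was tested on simulated data. The settings tried as alternatives were the background correction, the deposited ratios, the retina channel alone, the slide as a block, array weights, the eBayes options, the probe filters, sex, slide 9, lens genes and robust regression. No array pair correlated above 0.988. The genes named beside the members were, per list, up to the 3 largest rises and falls among called genes, and the 5 genes most like *Nupr1*. The members and lists were chosen with earlier results of these data known. Adjusted p-values rest on the spread between mice.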

Additional observations from a re-analysis of the deposited data

Results flagged for a closer look

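The OIR effect on *Atf5* differed between days by a test of the difference itself in limma. It was larger on P17 than on P12 by 0.86 (SE 0.13, adjusted p = 2.38e-06). From P17 to P28 the effect changed by −0.87 (SE 0.12, adjusted p = 4.26e-06). These contrasts share the P17 mice.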

How the results depend on the processing

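No paired analysis was possible because each mouse number occurs once and the groups share none. With 12 to 14 mice per group no mouse was left out singly. The settings chosen after seeing the data were the deposited ratios with the slide as a block, leaving out slide 9, the lens term, leaving out the 6 mice high in lens genes, and robust regression. The call of *Atf5* on P17 held under all 16 alternatives (0.71 to 0.97), and those of its changes between days under all 15. Of the values of single genes under the alternatives, 523 kept their direction and, where tested, their side of the threshold, 35 changed direction, 21 passed the threshold where the reported value did not, 3 no longer passed it (*Atf4* with age in control mice), and 3 untested values moved (*Nupr1* on P17). The causes of the changes below were not tested.

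The P17 difference of *Nupr1*, 1.83, was 2.61 with an offset of 0, 2.79 in the deposited ratios and 2.89 in these with the slide block. Its P28 difference of 0.50 was called without the mice high in lens genes (0.68) and in robust regression (0.65). Its P12 difference of 0.23 turned to −0.15 in the deposited ratios and −0.20 with the slide block added.

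Of the members on P17, 1 was called, against 2 without background subtraction, with an offset of 0, with the slide block and without dim probes, 3 in the deposited ratios, the retina channel, one fit over 6 groups and array weights, and 4 in the deposited ratios with the slide block and in robust regression. On P28 0 were called, against 1 without the mice high in lens genes and 2 in robust regression. For the change from P12 to P17 1 was called, against 2 with an offset of 0, in the deposited ratios and in the retina channel, and 3 in the deposited ratios with the slide block.

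Of all 55681 probes, 1.14% were called on P17, against 1.87% without background subtraction, 2.64% in the deposited ratios, 3.04% in the retina channel, 1.64% with an offset of 0, 1.5% with the slide block, 2.46% of 32409 probes without dim ones, 1.22% in one fit over 6 groups, 2.8% with array weights, 2.22% in the deposited ratios with the slide block, 0.745% with the lens term and 4.04% in robust regression. On P12 0.0216% were called, against 0.07% in the deposited ratios, 0.0718% in the retina channel, 0.0377% with array weights, 0.0539% in the deposited ratios with the slide block and 0.128% in robust regression. On P28 0.0611% were called, against 0.11% without background subtraction, 0.203% in the deposited ratios, 0.286% in the retina channel, 0.219% with the slide block, 0.149% in one fit over 6 groups, 0.212% with array weights, 0.136% in the deposited ratios with the slide block and 0.413% in robust regression. For the change from P12 to P17 0.487% were called, against 1.01% with an offset of 0, 1.39% in the deposited ratios, 1.75% in the retina channel, 0.943% with the slide block, 1.59% with array weights and 2.01% in the deposited ratios with the slide block. From P17 to P28 0.278% were called, against 0.431% with an offset of 0, 0.584% in the deposited ratios, 1.02% in the retina channel, 0.751% with array weights, 0.576% in the deposited ratios with the slide block and 0.136% without the mice high in lens genes. From P12 to P28 0.0395% were called, against 0.0718% without background subtraction, 0.0952% with an offset of 0, 0.176% in the deposited ratios, 0.142% in the retina channel, 0.101% with the slide block, 0.194% with array weights and 0.244% in the deposited ratios with the slide block. Of 32409 probes without dim ones, 0.0432% were called on P12 and 0.133% on P28. For the changes of the OIR effect, these shares were 0.904% from P12 to P17, 0.574% from P17 to P28 and 0.0926% from P12 to P28. With age in control mice 23% were called, against 38.7% with array weights and 42% of 32409 probes without dim ones.

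Small differences that were not called changed sign. On P12, *Ddit3* was 0.0033 in the retina channel, 0.091 with array weights, 0.11 without slide 9 and 0.056 in robust regression. *Atf3* was −0.036 with an offset of 0, −0.030 in the retina channel and −0.00034 with the slide block. *Trib3* was −0.028 without background subtraction, −0.11 with an offset of 0, −0.14 in the deposited ratios, −0.065 in the retina channel, −0.0095 with the slide block and −0.069 in the deposited ratios with it. *Asns* was −0.015, −0.022, −0.042, −0.058 and −0.070 under the same settings save the retina channel. On P17, *Atf4* was −0.021 with an offset of 0, −0.061 in the deposited ratios, −0.18 in the retina channel and −0.00034 with the lens term. On P28, *Ddit3* was −0.025 with the slide block and −0.079 in the deposited ratios with it, and *Hspa5* −0.033 and −0.092. *Atf5* was 0.0063 in the deposited ratios, 0.0020 with the slide block and 0.033 with both. *Chac1* was −0.028 with array weights and −0.089 in robust regression, and *Asns* −0.026 in the retina channel. With age in control mice, the called fall of the brighter *Atf4* probe was 0.030 in the retina channel.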
